A study of Carassius auratus with 6 samples.

Results

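The genes described here encode enzymes that break down amino acids or handle the nitrogen released from them, measured in crucian carp liver. They were chosen by name: 39 enzyme names were looked up in the deposited gene table, ignoring case and allowing the letter endings that mark duplicated copies. Of these names, 36 had at least 1 copy, and together they gave 101 gene copies of the 47544 genes in the table. The names gpt, bcat2 and sds matched no row under the rule, although 3 alanine aminotransferase copies carry the name gpt2l, of which 2 are described with gpt2 below. The rule reads gene names only, and the list of names was drawn up with earlier results of these data known. All fish are labelled Carassius auratus and wild-type, with liver as the tissue. The control group of 3 libraries carries the treatment label control, and the other 3 libraries come from fish kept under hypoxia for 12 h. Age, sex, oxygen level and whether each library is a separate animal were not given in the sources used here. Every p-value therefore sets a group difference against the spread between these libraries, which may not be separate animals.

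When amino acids are used as fuel, an aminotransferase or a lyase first removes the nitrogen, and the carbon skeleton then enters glycolysis, the citric acid cycle or ketone metabolism. In most mammals the released ammonia is turned into urea in the liver, whereas bony fish pass most of it out as ammonia through the gills and keep glutamine synthetase as a means of holding it in a harmless form. Several steps use molecular oxygen directly, among them tryptophan dioxygenase, the pair of dioxygenases in tyrosine breakdown, and cysteine dioxygenase. The design asks how liver RNA differs after 12 h of low oxygen.

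Values are normalized counts, which are read counts divided by a scaling factor for each library, and they are not divided by gene length. A level can therefore be compared between libraries for 1 gene, but not between genes. Changes are hypoxia minus control on the scale of log2 of the normalized count plus 1, given ± SE with n = 3 per group. A copy is said to have risen or fallen where limma's moderated test gave an adjusted p under 0.05, with Benjamini-Hochberg adjustment over all 41045 genes tested. Of the 101 copies, 96 had a mean over the 6 libraries of at least 1 and were tested.

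Few of these enzymes passed the test. Of the 96 copies, 2 rose and 0 fell, while 1.83% of all genes tested rose and 0.417% fell. The 2 that rose were arg2-b 113112585, a mitochondrial arginase, and AGXT 113116909, a copy of alanine-glyoxylate aminotransferase. At an unadjusted p under 0.05, 6 copies were higher and 10 were lower, against 10.2% and 8.41% of all genes. The edgeR test on recovered reads called 1 copy higher and 0 lower, against 1.51% and 0.404% of all genes. DESeq2 called 2 higher and 4 lower, against 5.09% and 3.24%, and the authors' deposited table has 2 higher and 3 lower at an adjusted p under 0.05, against 3.97% and 2.39%. In all 3 hypoxia libraries 4 copies lay above every control and 10 lay below every control, which is 4.17% and 10.4% of the 96, against 12.4% and 12.2% of all genes. The median change over the 96 copies was -0.056, against 0.0043 over all genes, and 73 copies had a change of less than 1 log2 unit in size. A share of called genes near or below that of the whole table is not a result about these enzymes as a group.

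**Figure D1:**
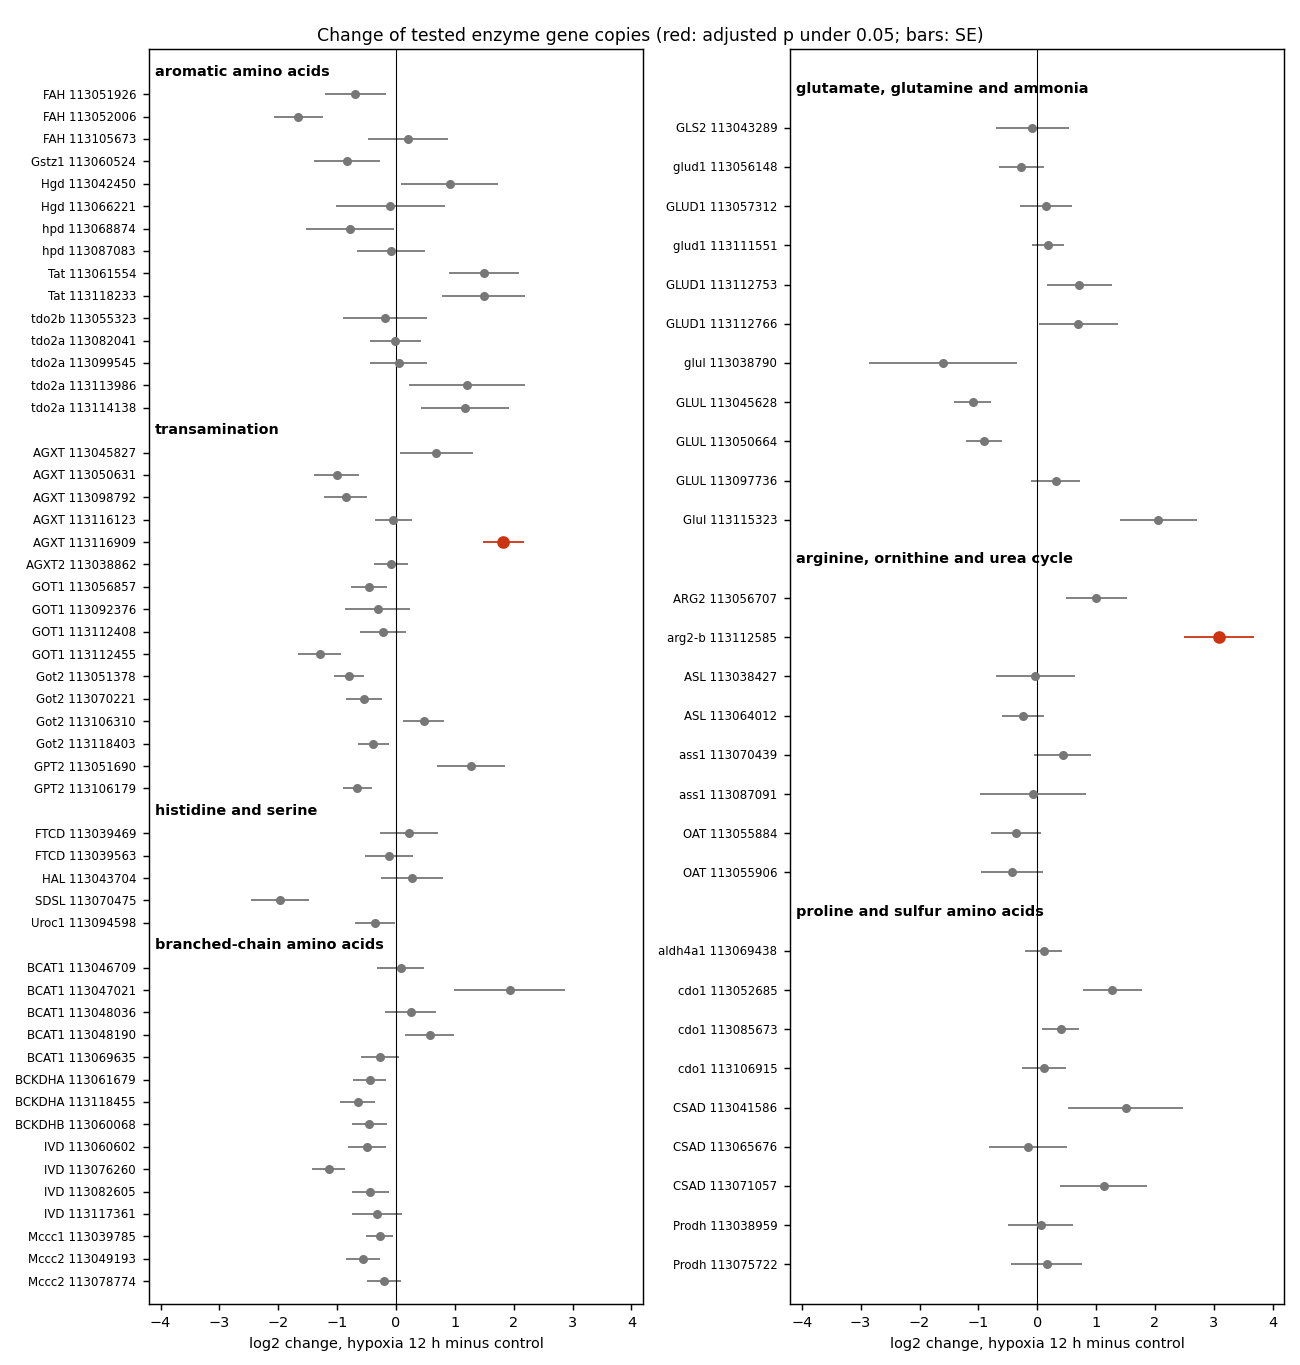
Log2 change on the x axis (hypoxia 12 h minus control) of 79 of the 96 tested copies, listed by pathway, with points for the estimate, bars for the SE (n = 3 per group) and red for the copies that rose. The changes lie between -1.96 and 3.09, and arg2-b and AGXT 113116909 passed the test.

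The libraries of a group were not alike. Recovered reads per library lay between 15734847 and 22782649. The normalized counts of all 101 copies summed to 48454, 105142 and 55414 in control replicates 1 to 3 and to 73760, 49270 and 85611 in hypoxia replicates 1 to 3. Control replicate 2 was the highest library of all 6 for 50 of the 96 copies, against 20.2% of all genes, and hypoxia replicate 2 was the lowest for 38, against 19.2%. Hepatocyte markers, among them the fibrinogen chains FGA and FGB, were read in every library and were highest in the same 3 libraries, with sums of 1144533, 2095734 and 1191940 in controls and 2116672, 1015249 and 1966173 after hypoxia. Of these markers 20 were tested, 0 rose and 3 fell, the latter 15% of them against 0.417% of all genes. At an unadjusted p under 0.05, 1 of them was higher and 4 were lower, against 10.2% and 8.41% of all genes. The edgeR test called 0 higher and 3 lower, against 1.51% and 0.404%, and DESeq2 called 1 and 3, against 5.09% and 3.24%. Carp liver is interlaced with exocrine pancreas, whose markers summed to 120894, 359 and 12588 in controls and to 61755, 158103 and 50964 after hypoxia, with the highest mean counts for CPB1 and CELA2A and no marker at 0 in all libraries. Over the 6 libraries, the sums lay between 1027 and 14553 for erythrocyte markers, 757 and 5076 for macrophage markers, 279 and 1562 for lymphocyte markers and 7699 and 14444 for biliary markers, each with overlapping groups. The sums of endothelial markers did not overlap, at 580 to 671 in controls and 893 to 1828 after hypoxia. Of their 12 tested copies, 6 lay above every control in all 3 hypoxia libraries and 2 rose, 50% and 16.7% of them, against 12.4% and 1.83% of all genes. A change below 0 was found for 3 of the 12. The endothelial copies with the highest means, TIE1 113050506 (0.083 ± 0.44) and Tie1 113100739 (-0.068 ± 0.42), overlapped and were not called. In bulk tissue, fewer cells of a type and less RNA per cell cannot be told apart. The part of these library differences in the results below was not tested.

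**Figure D2:**
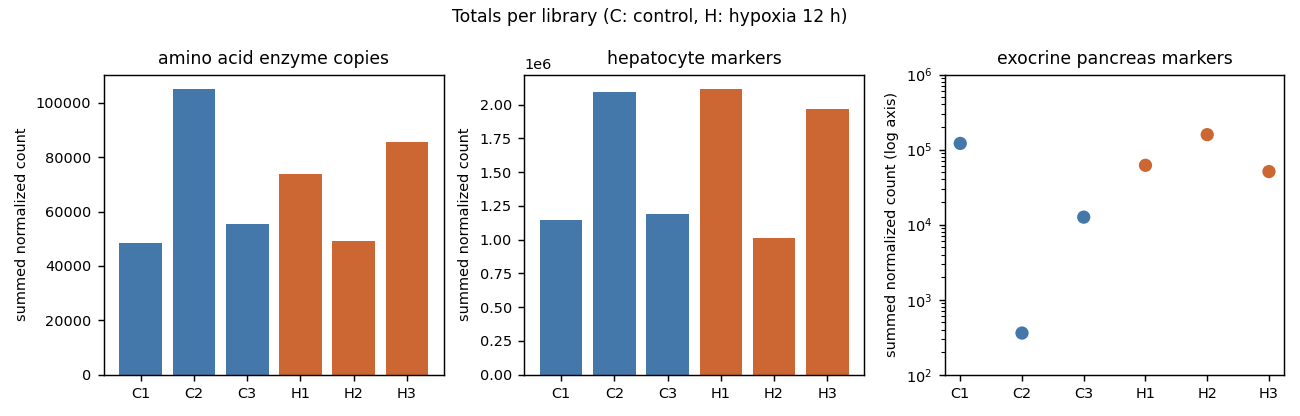
Summed normalized counts (y axis) in control (C) and hypoxia (H) libraries 1 to 3, with a bar per library for the amino acid enzymes and the hepatocyte markers, and a point per library on a log axis for the exocrine pancreas markers. The enzyme sum is highest in control replicate 2, at 105142, and that library has the lowest pancreas sum, at 359.

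Control replicate 2 lay furthest from the other controls. Over all genes tested, the median absolute log2 deviation from the mean of the other controls was 0.513, 0.625 and 0.493 for control replicates 1 to 3. For hypoxia replicates 1 to 3 the like values were 0.442, 0.562 and 0.406. The median SD of log2 values over the 96 copies was 0.629 among the 3 controls and 0.318 with control replicate 2 left out, against 0.559 and 0.345 over all genes. An SD of 2 values has a lower median than an SD of 3 at the same spread, so the drop cannot be read as a measure of that library. Without control replicate 2, 8 copies rose and 1 fell, against 3.48% and 2.28% of all genes. Besides arg2-b and AGXT 113116909, the copies that then rose were Glul 113115323, cdo1 113052685, Tat 113118233, AGXT 113045827, Hgd 113042450 and BCAT1 113047021, and SDSL 113070475 was the one that fell. Leaving out any of the other 5 libraries gave 0 calls among these copies in either direction. Over all genes those 5 fits called 285 to 478 rises and 36 to 57 falls, against 750 and 171 with all 6 libraries.

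Arginine is split by arginase into ornithine and urea. The mitochondrial form, arginase 2, is present in 2 copies here. The copy arg2-b 113112585 stood at 24.2, 10.4 and 20.0 normalized counts in control replicates 1 to 3 and at 80.3, 391 and 116 in hypoxia replicates 1 to 3. Every hypoxia library was above every control, with hypoxia replicate 2 far above the other two. The copy rose by 3.09 ± 0.59 (adjusted p = 0.034). With 1 library left out at a time its change stayed between 2.42 and 3.55, with an adjusted p of 0.044 to 0.094 and the call held in 1 of the 6 fits, that without control replicate 2. Hypoxia replicate 2, the highest library for this copy, also had the highest sums of the exocrine pancreas, macrophage, lymphocyte, endothelial and biliary markers. Their part in the value was not tested. In that library 2 copies of the keratin gene krt18 held 9816 and 2006 of the biliary sum of 14444. Without hypoxia replicate 2 the change of arg2-b was 2.42 (adjusted p = 0.09). The authors' deposited table gives a log2 fold change of 3.43 and an adjusted p of 1.01e-05 for it. The log2 fold changes of that table equal those of DESeq2 here to within 0.0029 for all 96 tested copies, so neither is evidence separate from the other. The edgeR test also called the copy (adjusted p = 0.035).

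The other arginase 2 copy, ARG2 113056707, was at 1400.1, 2727 and 5019.7 in controls and at 6879, 2994 and 7517 after hypoxia. The groups overlapped, since control replicate 3 lay above hypoxia replicate 2, and the change of 1.0 ± 0.52 did not pass (adjusted p = 0.34). The cytosolic arginase of the mammalian urea cycle, ARG1, was barely read, and neither of its 2 copies reached the mean needed for testing. Copy 113056295 had 2 control reads and 0 hypoxia reads, and copy 113111891 was at 1.10, 1.16 and 2.0 in controls and at 1.18, 0 and 0 after hypoxia.

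The remaining urea cycle enzymes showed no called change. Carbamoyl-phosphate synthetase 1, which feeds ammonia into the cycle in mammals, was named for 2 loci that the reference lists as a long non-coding RNA (113053032) and a pseudogene (113053808), each with 2 reads over all 6 libraries. Argininosuccinate synthase, ass1 113070439, was at 849.5, 187 and 480.4 in controls and at 665, 653 and 435 after hypoxia. Control replicate 2 was the lowest of the 6 libraries for it, the reverse of most copies here, and the groups overlapped (0.43 ± 0.49, adjusted p = 0.67). Argininosuccinate lyase, ASL 113064012, was at 207, 85.5 and 196 in controls and at 119, 145 and 120.4 after hypoxia, a change of -0.24 ± 0.36. Ornithine aminotransferase, which links ornithine to glutamate and proline, was read from 2 loci, OAT 113055906, with a change of -0.43 ± 0.52, and OAT 113055884, with -0.36 ± 0.42. The reference lists the first as a pseudogene.

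Aminotransferases pass the amino group of an amino acid to a keto acid. Tat, BCAT1 and OAT are aminotransferases too, but are counted with other pathways. Of those, 2 of 2 Tat copies and 4 of 5 BCAT1 copies had a change above 0, and 2 of 2 OAT copies below. The group counted here holds AGXT, AGXT2, GOT1, GOT2 and GPT2. Among the 16 copies of this group, 4 had a change above 0 and 12 below 0. Their median was -0.35, against 49.8% of all genes below 0. Without control replicate 2, 10 were below 0. With limma 1 rose, 6.25% of them against 1.83% of all genes, and 0 fell, against 0.417%. An unadjusted p under 0.05 was found for 1 higher and 5 lower copies, against 10.2% and 8.41% of all genes. With edgeR 0 were called, against 1.51% higher and 0.404% lower. DESeq2 called 1 higher and 1 lower, against 5.09% and 3.24%. In all 3 hypoxia libraries 12.5% lay above every control and 25% lay below, against 12.4% and 12.2% of all genes. Alanine-glyoxylate aminotransferase, which clears glyoxylate in the peroxisomes or mitochondria of liver, had 5 copies that differed in direction. AGXT 113116909 was at 329, 569.9 and 218 in controls and at 960.5, 1378 and 1381 after hypoxia. All 3 hypoxia libraries lay above all controls, and the copy rose by 1.82 ± 0.35 (adjusted p = 0.036). Its change was between 1.50 and 2.19 with 1 library left out at a time, its adjusted p ranged over 0.0066 to 0.14, and the call again held in no such fit but that without control replicate 2. Endothelial marker sums were likewise higher in all 3 hypoxia libraries, and their part in the value was not tested. Under edgeR the call was lost (adjusted p = 0.068), and the authors' deposited table gives 1.74 with an adjusted p of 0.00084.

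AGXT 113050631 had the opposite order, at 656, 872 and 495 in controls and at 386, 184 and 488 after hypoxia. Every hypoxia library lay below every control, but the change of -1.01 ± 0.38 did not pass (adjusted p = 0.21). AGXT 113098792, the copy with the reference symbol agxta, was at 2466, 3873 and 1851 in controls and at 1486, 985 and 2038 after hypoxia. Its groups overlapped through hypoxia replicate 3 and control replicate 3 (-0.86 ± 0.37, adjusted p = 0.25). AGXT 113045827, with the reference symbol agxtb, was at 926, 5340.3 and 921 in controls and at 2549, 2129 and 3468 after hypoxia, a change of 0.68 ± 0.62 with control replicate 2 highest of all. AGXT 113116123 was at 571, 276 and 408 in controls and at 293, 445 and 448 after hypoxia, and its groups overlapped widely (-0.047 ± 0.32).

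Summed over the 5 copies, alanine-glyoxylate aminotransferase was 6591 ± 3796 (SD, n = 3) in controls and 6207 ± 1428 after hypoxia, with overlapping groups. The balance between copies was compared within each library. The log2 ratio of AGXT 113116909 to AGXT 113098792 was -2.91, -2.76 and -3.08 in controls and -0.63, 0.48 and -0.56 after hypoxia. The ratio was higher in all 3 hypoxia libraries by 2.68 on average. The 3 ratios computed here and for glutamine synthetase were chosen because their copies differed in opposite directions, so they are given without a test. Against AGXT 113050631 the same copy was higher by 2.84 on average, also without overlap. A factor that scales a whole library cancels in such ratios. A difference in the mix of cells between libraries need not cancel, and its part in the ratios was not tested. The sources used here do not say how reads shared by near-identical copies were counted, which makes the level of a single copy uncertain where 2 copies are alike.

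**Figure D3:**
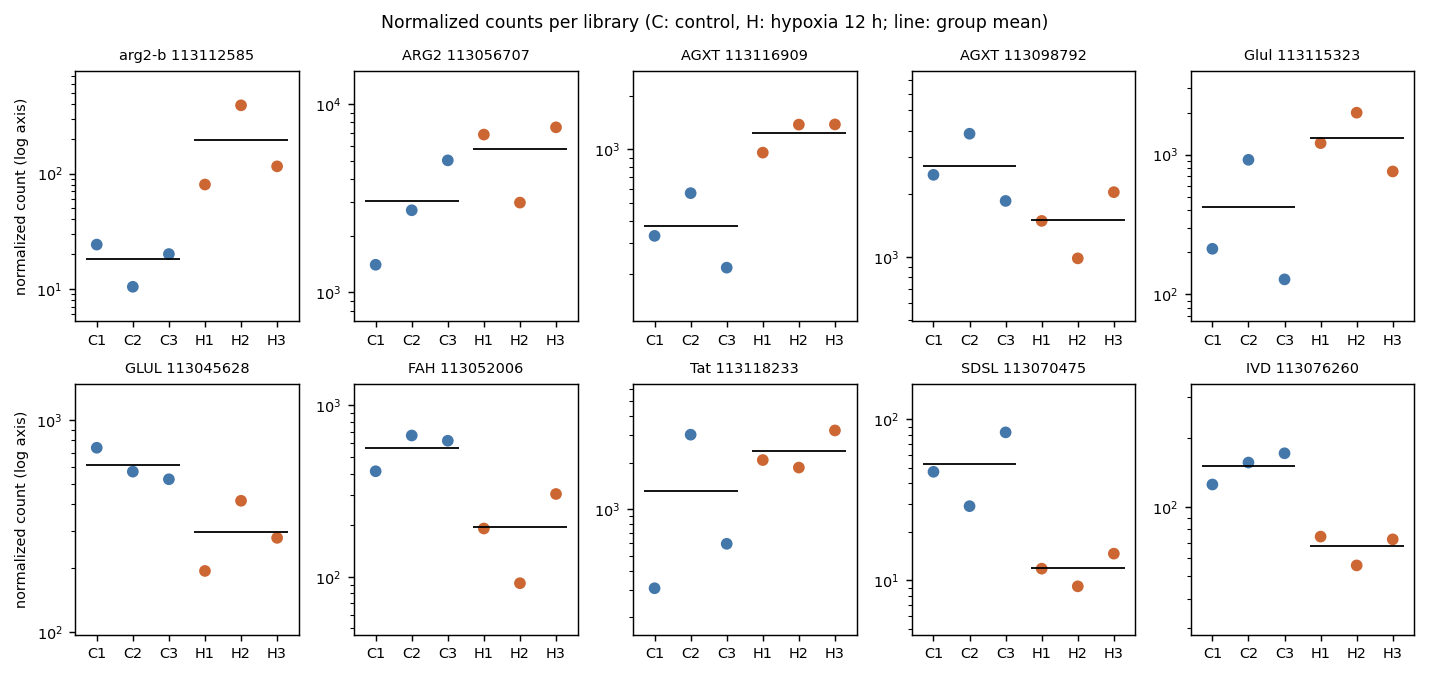
Normalized counts (log axis) of 10 copies in control (C) and hypoxia (H) libraries 1 to 3, with 1 point per library and a line at each group mean. Group means of copies of 1 enzyme differ in opposite directions, as with AGXT 113116909 (control mean 372, hypoxia mean 1239.7) and AGXT 113098792. The latter has a control mean of 2730 and a hypoxia mean of 1503, with overlapping groups. Control replicate 2 lies within the hypoxia range of Tat 113118233.

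Aspartate aminotransferase links glutamate and aspartate, and its cytosolic (GOT1) and mitochondrial (GOT2) forms carry the malate-aspartate shuttle of reducing equivalents. All 4 GOT1 copies had a change below 0, also under quantile normalization, edgeR and DESeq2, although the copy with the highest mean, GOT1 113112408 (-0.21), was above 0 without control replicate 2 or hypoxia replicate 2. GOT1 113112455 was at 107, 126 and 116 in controls and at 73.2, 29.8 and 46.4 after hypoxia. The libraries of the 2 groups did not overlap, and the change was -1.29 ± 0.36 (adjusted p = 0.12). DESeq2 called it (adjusted p = 0.048), while edgeR did not (adjusted p = 0.13), nor did the authors' deposited table (adjusted p = 0.0557). Among the mitochondrial copies, Got2 113051378 also lay lower in every hypoxia library, at 544, 636 and 878 against 411, 321 and 438 (-0.80 ± 0.26, adjusted p = 0.16). The copy with the highest mean, Got2 113070221, was at 1219, 2051 and 1316 in controls and at 1028, 765 and 1334 after hypoxia. Its groups overlapped (-0.55 ± 0.30). Got2 113106310, with the reference symbol got2b, had a change above 0 (0.47 ± 0.35, adjusted p = 0.5). It was at 131, 281 and 329 in controls and at 346, 288 and 322 after hypoxia, with overlap. For the remaining copy, Got2 113118403, the change was -0.38 ± 0.27.

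Alanine aminotransferase makes alanine from pyruvate. The mitochondrial form GPT2 had 2 copies with opposite orders. GPT2 113106179 was at 216, 276 and 317 in controls and lower in every hypoxia library, at 167, 155 and 186 (-0.66 ± 0.24, adjusted p = 0.2). GPT2 113051690 was at 69.2, 13.9 and 73.1 and higher in every hypoxia library, at 92.1, 117 and 99.3 (1.28 ± 0.58, adjusted p = 0.28). Neither passed the test. Of the 3 copies named gpt2l, outside the name rule, 1 had a mean under 1 and the others were not called. Copy 113045983, whose reference symbol is gpt, had 741 ± 121 in controls and 699 ± 159 after hypoxia (SD, n = 3), a change of -0.098 ± 0.26. Copy 113114441 was at 453, 1292 and 250.2 in controls and at 1525, 1206 and 1385 after hypoxia, a change of 1.37 ± 0.51 (adjusted p = 0.2). Without control replicate 2 limma called it, with a change of 2.02 (adjusted p = 0.011). AGXT2, the mitochondrial enzyme that also acts on beta-aminoisobutyrate, was at 714, 1006 and 978 in controls and at 916, 602 and 1070.1 after hypoxia (-0.084 ± 0.28).

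Phenylalanine, tyrosine and tryptophan breakdown was covered by 20 tested copies, of which 12 had a change above 0 and 8 below, with a median of 0.11. The median was -0.063 with edgeR and -0.045 with DESeq2, so no direction is given for the group. Tyrosine aminotransferase, the first step of tyrosine breakdown, had 2 loci. Tat 113118233 was at 308, 3032 and 597 in controls and at 2078, 1858 and 3229.7 after hypoxia. Control replicate 2 lay within the hypoxia range and the other two controls lay far below it. The change was 1.49 ± 0.70 (adjusted p = 0.3) and 2.43 (adjusted p = 0.011) without control replicate 2. Tat 113061554, which the reference lists as a pseudogene, was at 168, 1025 and 576 in controls and at 1168, 935 and 2038 after hypoxia, a change of 1.49 ± 0.59 (adjusted p = 0.23).

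The next steps did not pass the test. 4-Hydroxyphenylpyruvate dioxygenase, hpd 113087083, was at 5877, 12960.0 and 3348 in controls and at 7854, 2995 and 9081 after hypoxia (-0.085 ± 0.58), with a spread within each group larger than the difference. Homogentisate dioxygenase, Hgd 113042450, was at 85.7, 1007 and 106 in controls and at 329.6, 287 and 652 after hypoxia. Control replicate 2 was the highest of the 6 and the other controls were the lowest (0.91 ± 0.82, adjusted p = 0.59). Without control replicate 2 its change was 2.04 (adjusted p = 0.023). Gstz1 113060524, maleylacetoacetate isomerase, was at 580.3, 942 and 204 in controls and at 320.2, 151 and 408 after hypoxia, a change of -0.83 ± 0.56.

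Fumarylacetoacetase is the last step of tyrosine breakdown. FAH 113052006 was at 413, 668 and 623 in controls and at 191, 91.7 and 304 after hypoxia. All hypoxia libraries were below all controls, and the change of -1.66 ± 0.42 missed the threshold with limma (adjusted p = 0.084). DESeq2 called it (adjusted p = 0.017), as did the authors' deposited table (-1.54, adjusted p = 0.0171), while edgeR did not (adjusted p = 0.12). Summed over 3 copies, fumarylacetoacetase was 677 ± 205 in controls and 271 ± 138 after hypoxia (SD, n = 3), with no overlap. Most of that sum is FAH 113052006, with means of 568 and 196. The groups of the other 2 copies overlapped, with changes of -0.69 ± 0.52 and 0.21 ± 0.68.

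Tryptophan dioxygenase opens the ring of tryptophan on the way to kynurenine. Its copy with the highest mean, tdo2b 113055323, was at 2146, 15116 and 4313 in controls and at 7834, 2176 and 5584 after hypoxia. Control replicate 2 was far above all the others, and the change was -0.19 ± 0.71.

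**Figure D4:**
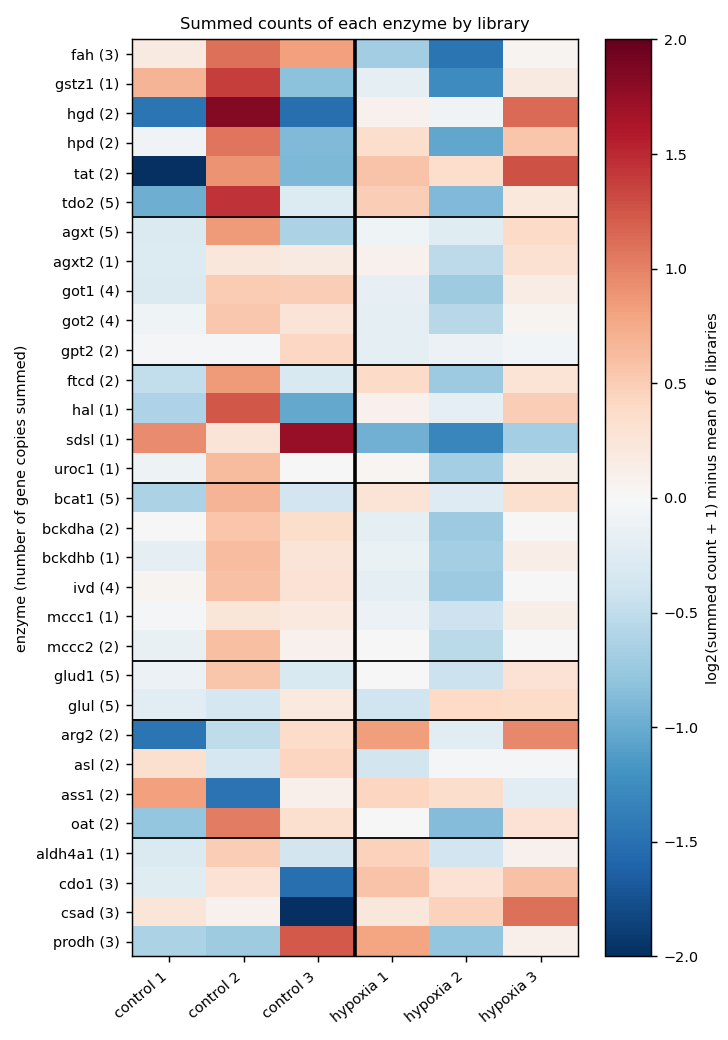
Heat map of the counts summed over all copies of the enzymes shown (rows, number of copies in brackets) in each library (columns), as log2 of the sum plus 1 minus its mean over the 6 libraries, with colours ending at -2 and 2. Rows for fah, ivd and sdsl are lower in all 3 hypoxia libraries, and most rows are above their mean in control replicate 2.

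Over the sums of copies, 6 of 36 enzymes were lower in every hypoxia library (arg1, bckdha, fah, gpt2, ivd and sdsl) and 1 was higher (cdo1), while 29 overlapped. For single genes over the whole table, 12.2% were lower and 12.4% higher in this way. The arg1 sum is of no more than 3 normalized counts in any library. For a further 3 sums the nearest libraries of the groups almost met. The lowest control and the highest hypoxia library were 285.7 and 284.8 for gpt2, whose 2 copies had opposite orders, and 419 and 417 for bckdha. For cdo1 the highest control was 1837 and the lowest hypoxia library 1842.

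Histidine is broken down through urocanate to glutamate. HAL 113043704, histidine ammonia-lyase, was at 885, 3228 and 667 in controls and at 1437, 1203 and 1917 after hypoxia (0.27 ± 0.53). Uroc1 113094598, urocanate hydratase, was at 2956, 4881 and 3162 in controls and at 3238, 1962 and 3426 after hypoxia (-0.36 ± 0.33). FTCD 113039563, which passes the formimino group to folate, was at 1563, 3489.7 and 1847 in controls and at 2663, 1196 and 2483 after hypoxia (-0.12 ± 0.41). For all 3 enzymes control replicate 2 was the highest of all libraries, and the groups overlapped.

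SDSL 113070475, serine dehydratase-like, is related to the enzyme that turns serine into pyruvate and ammonia. It stood at 47.3, 28.9 and 83.1 in controls and at 11.8, 9.17 and 14.6 after hypoxia. Its lowest control was above its highest hypoxia library, and the change was -1.96 ± 0.49 (adjusted p = 0.084). DESeq2 called it (adjusted p = 0.0064), the edgeR test did not (adjusted p = 0.073), and without control replicate 2 limma called it (adjusted p = 0.029). The authors' deposited table gives -2.16 with an adjusted p of 0.00756.

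Leucine, isoleucine and valine lose their nitrogen through BCAT and are then oxidised by the branched-chain ketoacid dehydrogenase, followed for leucine by IVD and the 2 subunits of methylcrotonyl-CoA carboxylase. Over all 15 copies of this pathway, 11 had a change below 0, with a median of -0.33, against 49.8% of all genes below 0. In the steps after transamination, all 10 copies had a change below 0, also under quantile normalization, edgeR and DESeq2. With limma these changes lay between -1.15 and -0.20, with a median of -0.45. Of the 10, 0 rose and 0 fell, against 1.83% and 0.417% of all genes. An unadjusted p under 0.05 was found for 0 higher and 1 lower copy, against 10.2% and 8.41% of all genes. With edgeR 0 were called, against 1.51% higher and 0.404% lower. DESeq2 called 0 higher and 1 lower, against 5.09% and 3.24%. Without control replicate 2, 8 of the 10 stayed below 0. Copies share libraries, so their common direction is no count of independent observations.

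IVD 113076260, isovaleryl-CoA dehydrogenase, was at 125, 156 and 171 in controls and at 74.4, 55.8 and 72.4 after hypoxia. All controls lay above all hypoxia libraries (-1.15 ± 0.27, adjusted p = 0.073). DESeq2 called it (adjusted p = 0.0098), as did the authors' deposited table (-1.16, adjusted p = 0.0153), while edgeR did not (adjusted p = 0.074). The IVD copy with the highest mean, 113060602, was at 243, 443 and 302 in controls and at 252, 159 and 289.7 after hypoxia, with overlap (-0.49 ± 0.32). BCKDHA 113118455, the alpha subunit of the dehydrogenase, was at 277, 468 and 411 in controls and at 263, 177 and 293 after hypoxia (-0.65 ± 0.29, adjusted p = 0.28). The change was -0.45 ± 0.30 for BCKDHB 113060068, the beta subunit, -0.28 ± 0.23 for Mccc1 113039785 and -0.20 ± 0.28 for Mccc2 113078774.

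For the first step, 5 BCAT1 copies were tested, and 0 rose and 0 fell with limma and edgeR. Of all genes, limma called 1.83% higher and 0.417% lower, and edgeR 1.51% and 0.404%. DESeq2 gave BCAT1 113047021 no adjusted p and called 0 of the other copies, against 5.09% higher and 3.24% lower of all genes. No BCAT1 copy had an unadjusted limma p under 0.05, against 10.2% higher and 8.41% lower of all genes. A change above 0 was found for 4 of the 5 copies, against 49.8% of all genes below 0. The copy with the highest mean had a change below 0. That copy, BCAT1 113069635, was at 419, 716 and 514 in controls and at 532, 286 and 574 after hypoxia (-0.27 ± 0.33). BCAT1 113047021 was at 18.7, 344 and 19.0 in controls and at 199.7, 211 and 177 after hypoxia. Control replicate 2 was the highest of the 6 for it and the other 2 controls were the lowest (1.93 ± 0.95, adjusted p = 0.31, and 3.31 with an adjusted p of 0.0011 without control replicate 2).

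Glutamate dehydrogenase releases ammonia from glutamate. The copy with the highest mean count, glud1 113056148, was at 2917, 5378 and 2721 in controls and at 3200.4, 1924 and 3959 after hypoxia (-0.27 ± 0.38). The other 4 of its 5 copies had a change above 0, between 0.15 and 0.72. Over the 5 copies the median was 0.19, against 49.8% of all genes below 0. GLS2 113043289, which releases ammonia from glutamine, had no more than 12.7 in any library.

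Glutamine synthetase, which fixes ammonia on glutamate, also had copies that differed in direction. GLUL 113097736, the copy with the highest mean and the reference symbol glulb, was at 3061, 2247 and 4867 in controls and at 2336, 4772 and 5748 after hypoxia, with overlap (0.31 ± 0.42). GLUL 113045628 was at 739, 569.9 and 524 and lower in every hypoxia library, at 194, 415 and 277 (-1.10 ± 0.31, adjusted p = 0.12). GLUL 113050664 was at 877, 722 and 958 and also lower in every hypoxia library, at 582, 294 and 538 (-0.91 ± 0.30, adjusted p = 0.16). Glul 113115323 was at 212, 919 and 128 in controls and at 1209.7, 1997 and 758 after hypoxia. It was higher in 2 of 3 hypoxia libraries than in any control, and the third lay below control replicate 2 (2.06 ± 0.66, adjusted p = 0.15, and 0.0092 without control replicate 2). The log2 ratio of Glul 113115323 to GLUL 113045628 was -1.80, 0.69 and -2.03 in controls and 2.64, 2.27 and 1.45 after hypoxia; the groups did not overlap. Copies described for their order of libraries were chosen after their values were seen. The copy glul 113038790 had reads in control replicate 3 alone, 27 of them.

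Proline and cysteine were represented by fewer copies. Proline dehydrogenase, Prodh 113038959, was at 191, 180.3 and 675 in controls and at 494, 166 and 321 after hypoxia. Control replicate 3 was the highest, and its change of 0.059 ± 0.55 turned below 0 under quantile normalization, edgeR and DESeq2. The next enzyme, aldh4a1 113069438, was at 433, 749 and 411 in controls and at 732, 406 and 562 after hypoxia (0.11 ± 0.32). Cysteine dioxygenase, cdo1 113052685, was at 746, 1417 and 278 in controls and at 1740.2, 1381 and 1739.8 after hypoxia. Control replicate 2 lay within the hypoxia range and the other 2 controls below it (1.27 ± 0.50, adjusted p = 0.23). Summed over its 3 copies, cysteine dioxygenase was 1213 ± 656 in controls and 2110 ± 232 after hypoxia (SD, n = 3), with the narrow gap given above. CSAD 113041586, the decarboxylase that follows it towards taurine, had no more than 24.4 in any library.

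Neighbouring parts of amino acid and nitrogen metabolism were counted in lists. In amino acid breakdown outside the 39 names, 94 copies were tested, of which 2 rose and 0 fell (2.13% rose, against 1.83% of all genes), with a median change of -0.33 and 69 below 0. In all 3 hypoxia libraries 3.19% lay above every control and 13.8% lay below, against 12.4% and 12.2% of all genes. At an unadjusted p under 0.05, 2 were higher and 14 lower, against 10.2% and 8.41% of all genes. The edgeR test called 1 higher and 0 lower, against 1.51% and 0.404%, and DESeq2 2 and 4, against 5.09% and 3.24%. Both that rose were copies of Ppm1k, the mitochondrial phosphatase that activates the branched-chain ketoacid dehydrogenase. Ppm1k 113072518 was at 37.4, 105 and 25.0 in controls and at 281, 349 and 483 after hypoxia, and every hypoxia library lay above every control (2.94 ± 0.49, adjusted p = 0.018). Ppm1k 113041226 was at 34.1, 144 and 34.0 in controls and at 328, 429 and 553 after hypoxia (2.93 ± 0.53, adjusted p = 0.027). With 1 library left out at a time, both calls held only without control replicate 2.

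In other ammonia and urea handling, 37 copies were tested, 0 rose and 2 fell, the latter 5.41% of them against 0.417% of all genes. In all 3 hypoxia libraries 2.7% lay above every control and 24.3% lay below, against 12.4% and 12.2% of all genes. At an unadjusted p under 0.05, 1 was higher and 7 were lower, against 10.2% and 8.41% of all genes. In this list edgeR called 0 higher and 1 lower, against 1.51% and 0.404%, and DESeq2 0 and 3, against 5.09% and 3.24%. Urate oxidase, which uses oxygen to oxidise urate, fell from 2009, 2494 and 2391 in controls to 383, 123 and 508 after hypoxia (uox 113054948, -2.98 ± 0.47, adjusted p = 0.014). No hypoxia library came near a control, and the call held in 4 of 6 fits with 1 library left out, all but those without control replicate 3 and hypoxia replicate 1. The enzyme that follows, 5-hydroxyisourate hydrolase, was at 604, 423 and 267 in controls and at 91.0, 52.0 and 155 after hypoxia and fell by 2.17 ± 0.43 on the log2 scale (urah 113117594, adjusted p = 0.041), with the call in 1 of 6 such fits, that without hypoxia replicate 3.

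Amino acid transporters bring amino acids across the cell membrane. Of 102 tested copies, 2 rose and 0 fell (1.96% rose, against 1.83% of all genes), 72 had a change above 0 and the median was 0.51. Against 12.4% and 12.2% of all genes, 19.6% of them lay above every control in all 3 hypoxia libraries and 3.92% lay below. At an unadjusted p under 0.05, 22 were higher and 2 lower, against 10.2% and 8.41% of all genes. The edgeR test called 0, against 1.51% higher and 0.404% lower of all genes, and DESeq2 11 higher and 1 lower, against 5.09% and 3.24%. SLC38A3 113050216, a glutamine carrier of liver, was at 176, 266 and 270.2 in controls and at 734, 479 and 739.7 after hypoxia, with no overlap (1.45 ± 0.28, adjusted p = 0.035). Slc7a8 113105702, a light chain of a large neutral amino acid exchanger, was at 18.7, 9.25 and 72.1 in controls and at 252, 1060.5 and 189 after hypoxia (3.92 ± 0.79, adjusted p = 0.042). With 1 library left out at a time, the first call held without control replicate 2 and without hypoxia replicate 2, and the second only without control replicate 3. The highest library for Slc7a8 was again hypoxia replicate 2, and without it the change was 3.16. The part of the endothelial markers, whose sums did not overlap either, in the transporter values was not tested.

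In proline and serine synthesis, 13 copies were tested, and 0 rose and 0 fell with limma, edgeR and DESeq2. Of all genes, limma called 1.83% higher and 0.417% lower, edgeR 1.51% and 0.404%, and DESeq2 5.09% and 3.24%. A change below 0 was found for 11 of the 13, with a median of -0.42, against 49.8% of all genes below 0. In all 3 hypoxia libraries 0% lay above every control and 23.1% lay below, against 12.4% and 12.2% of all genes. At an unadjusted p under 0.05, 0 were higher and 2 lower, against 10.2% and 8.41% of all genes. PSPH 113058245, the last step of serine synthesis, was at 444, 793 and 727 in controls and at 266, 170.5 and 425 after hypoxia (-1.24 ± 0.37, adjusted p = 0.13). Psat1 113094279, the aminotransferase before it, was at 967, 1530.4 and 948 in controls and at 549, 274 and 936 after hypoxia (-1.10 ± 0.42, adjusted p = 0.21).

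**Figure D5:**
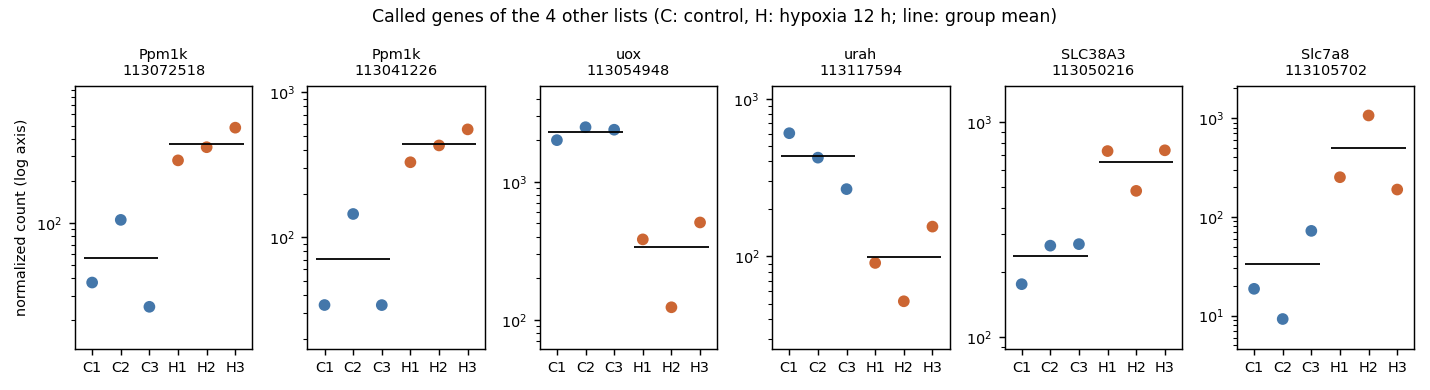
Normalized counts (log axis) of the 6 genes of the neighbouring lists that rose or fell, in control (C) and hypoxia (H) libraries 1 to 3, with 1 point per library and a line at each group mean. In each panel the 3 hypoxia libraries lie on 1 side of the 3 controls.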

How the data were processed

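Total RNA of crucian carp liver was sequenced in 3 control and 3 hypoxia (12 h) libraries. The submitters' processing notes name Bowtie2 2.2.8 and TopHat2 2.1.1. No counter, strand setting, build, annotation or filter is named there, so these steps were not given in the sources used here. The deposited signal of each gene was, within 0.01 of a read, a whole number of reads divided by 1 size factor per library (0.846 to 1.31) for 100% of values, although the table's name says FPKM. These are called normalized counts. The authors' log2 fold change, p-value and adjusted p-value were deposited in the same table, from a test not given in the sources used here.

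Limma 3.58.1 (R 4.3.3) was run with a mean-variance trend on log2 of the normalized count plus 1, hypoxia minus control, without covariates, on 41045 genes, those whose mean over the 6 libraries was at least 1. Adding 1 makes the change of low genes smaller. The design named edgeR for whole-number counts; the table holds scaled counts, so limma was kept. Alternatives were pseudocounts of 0.5 and 5, no filter, a mean of at least 10, quantile normalization, edgeR 4.0.16 and DESeq2 1.42.0 on recovered reads (41045 and 32967 genes with an adjusted p), a replicate block, and each library left out in turn. Scripts were tested on simulated data. Recovered reads were 15734847 to 22782649 per library. Each SE is limma's moderated value and each SD is taken over the libraries of a group, so both measure spread between libraries.

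The enzymes and lists were chosen with earlier results of these data known. Copies were named if called, if of the highest mean for their enzyme, or if among the called or smallest p of a neighbouring list. The 2 most abundant markers were named for hepatocytes, exocrine pancreas, endothelium and the biliary list. Others were named after their values were seen. All 101 copies matched the goldfish gene table of RefSeq (assembly ASM336829v1), used for symbols, gene types and neighbours only. Of them 5 are listed as pseudogenes, and 2 as long non-coding RNA. Single values of 2 enzymes are not reported here, although their copies stay in the counts and sums.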

Additional observations from a re-analysis of the deposited data

How the results depend on the processing

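The number of enzyme copies that rose was 2, and it was 1 with edgeR, 0 with the replicate block and between 0 and 8 with 1 library left out, the 8 being without control replicate 2. The number that fell was 0, and it was 4 with DESeq2 and between 0 and 1 with 1 library left out. The pseudocounts, filters and quantile normalization gave 2 and 0. Over all genes, 750 rose and 171 fell. DESeq2 gave 1678 and 1067, quantile normalization 712 and 274, and the replicate block 354 and 61. With 1 library left out, 285 to 1425 rose and 36 to 935 fell. Rises and falls were 478 and 43, 1425 and 935, and 424 and 36 without control replicates 1, 2 and 3, and 285 and 37, 369 and 44, and 300 and 57 without hypoxia replicates 1, 2 and 3. No pairing of control and hypoxia libraries is stated in the sources used here. Deviations from the group means correlated at -0.070, -0.19 and -0.028 between libraries of the same number. No control correlated best with the hypoxia library of its own number. Deviations within a group of 3 sum to 0, so these correlations cannot decide whether the libraries were paired. With the replicate block the adjusted p was 0.11 for arg2-b and 0.077 for AGXT 113116909.

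The median change over the enzymes lay between -0.23 and 0.089. Changes near 0 turned sign for Prodh 113038959 (0.059; -0.042 with quantile normalization, -0.099 with edgeR and -0.094 with DESeq2) and HAL 113043704 (0.27; -0.096 with edgeR and -0.069 with DESeq2). With 1 library left out, 17 named enzyme copies turned sign in at least 1 fit, none of them called. Their changes ranged over -0.32 to 0.21 for AGXT 113116123, -0.26 to 0.15 for AGXT2 113038862, -0.31 to 0.68 for Prodh 113038959, -0.35 to 0.25 for FTCD 113039563, -0.34 to 0.34 for GLS2 113043289, -0.18 to 0.96 for HAL 113043704 and -0.82 to 0.59 for tdo2b 113055323. They ranged over -0.92 to 0.039 for OAT 113055906, -0.83 to 0.0086 for OAT 113055884, -0.24 to 0.10 for gpt2l 113045983, -0.49 to 0.042 for glud1 113056148, -0.097 to 0.38 for aldh4a1 113069438 and -0.46 to 0.044 for BCAT1 113069635. For the remaining copies they ranged over -0.15 to 0.93 for ass1 113070439, -0.36 to 0.0197 for Mccc2 113078774, -0.55 to 0.43 for hpd 113087083 and -0.54 to 0.11 for GOT1 113112408. The cause of these differences was not tested. At this depth a change was not detectable for ARG1, with no more than 4 reads of a copy in a group.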
